A study of Mus musculus with 6 samples.

Results

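Laminins and the proteins that anchor them form the core of the basement membrane, the thin matrix sheet that coats each cardiac muscle cell and underlies every vessel of the heart. The 10 genes described here encode laminin chains (Lama2, Lama4, Lama5, Lamb1, Lamb2 and Lamc1), the nidogens (Nid1 and Nid2) and the heparan sulfate proteoglycans perlecan (Hspg2) and agrin (Agrn). They were chosen by gene name, and each matched 1 row among the 54532 genes of the deposited table. The samples were heart RNA libraries from wild-type ICR mice, an outbred stock, whose sample names carry the age of 4 days. In the STZ group (n = 3) the mothers had received an intraperitoneal injection of STZ while pregnant, which served as a model of gestational diabetes. In the control group (n = 3) the pregnant mothers had been injected with citric acid in the same way. The labels do not tell which litter a heart came from, and p-values therefore measure the spread between these libraries, which may be partly technical.

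Each laminin is a trimer of an alpha, a beta and a gamma chain, and the trimers polymerise on the cell surface into a network. Nidogen bridges this network to that of collagen type IV, and perlecan and agrin tie it to growth factors and to receptors. In the heart, the alpha 2 chain is typical of the muscle cell surface and the alpha 4 and alpha 5 chains of vessel walls. Receptors of these ligands are dystroglycan and the laminin-binding integrins, which link the sheet to the cytoskeleton of the muscle cell.

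RefSeq promoter windows of 300 bases around a transcription start (GRCm38.p6) were held for 7 of the 10 genes. Those of Hspg2, Lamb1, Lamb2 and Agrn are printed because these 4 genes span the range of behaviour described further on, from the gene that was lowest in the library control 2, relative to the other libraries, to the gene that was highest. Capitals mark the GC box GGGCGG and its reverse complement CCGCCC, the sequence bound by Sp1-type factors, searched on both strands with overlapping matches counted.
Hspg2, chr4:137468553-137468852, plus strand: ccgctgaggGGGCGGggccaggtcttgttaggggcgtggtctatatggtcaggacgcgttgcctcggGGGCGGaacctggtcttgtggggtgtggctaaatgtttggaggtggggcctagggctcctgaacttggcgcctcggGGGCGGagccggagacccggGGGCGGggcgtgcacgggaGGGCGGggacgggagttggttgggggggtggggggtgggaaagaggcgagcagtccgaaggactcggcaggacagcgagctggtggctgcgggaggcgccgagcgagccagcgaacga
Lamb1, chr12:31265043-31265342, plus strand: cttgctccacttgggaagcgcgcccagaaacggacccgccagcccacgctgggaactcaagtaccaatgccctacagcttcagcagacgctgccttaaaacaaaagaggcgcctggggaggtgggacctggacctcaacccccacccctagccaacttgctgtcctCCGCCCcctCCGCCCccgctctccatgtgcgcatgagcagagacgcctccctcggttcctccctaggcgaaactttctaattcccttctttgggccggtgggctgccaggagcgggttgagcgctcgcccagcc
Lamb2, chr9:108479612-108479911, plus strand: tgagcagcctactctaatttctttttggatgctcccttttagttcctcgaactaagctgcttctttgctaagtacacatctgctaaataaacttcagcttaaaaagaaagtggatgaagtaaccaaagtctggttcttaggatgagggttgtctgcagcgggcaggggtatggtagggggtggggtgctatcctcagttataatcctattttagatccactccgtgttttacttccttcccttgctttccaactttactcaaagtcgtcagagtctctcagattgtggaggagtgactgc
Agrn, chr4:156197439-156197738, minus strand: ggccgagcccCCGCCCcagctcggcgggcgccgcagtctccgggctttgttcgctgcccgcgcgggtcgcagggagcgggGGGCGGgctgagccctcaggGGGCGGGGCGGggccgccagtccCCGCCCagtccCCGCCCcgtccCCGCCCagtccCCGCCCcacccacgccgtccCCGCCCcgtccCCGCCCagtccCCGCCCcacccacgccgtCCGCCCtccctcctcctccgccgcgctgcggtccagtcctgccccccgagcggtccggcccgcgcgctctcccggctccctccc

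The window of Agrn held 12 GC boxes, that of Hspg2 held 5, that of Lamb1 held 2 and that of Lamb2 held 0. A second Agrn window, farther inside the gene, held 2. At least 1 GC box was present in 35.7% of the 32851 windows of all genes, and 6 of the 7 genes with a window had one. The number of CpG pairs followed the same order, at 42, 27, 18 and 4, against a median of 7 over all windows. The starts used for these windows lay 0 (Agrn), 34 (Hspg2), 59 (Lamb1) and 126 (Lamb2) bases from the start of the deposited gene models. These letters describe the windows and say nothing of which factor was bound in these hearts.

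The libraries held between 16707268 and 18082599 whole reads, recovered from the deposited FPKM values (per kilobase of gene length and per a scale the authors set for each library). Divided by the recovered reads, this scale was 1.21 in control 2, against 0.985 to 1.03 elsewhere. All 8 cardiomyocyte markers were measured, with summed levels of 12588 to 13622 FPKM in STZ hearts and 6071 to 14635 FPKM in control hearts, as heart muscle should give. Control 2 stood apart. Each of its 6 atrial markers was the highest of the 6 libraries, and 4 of 5 Schwann cell markers and 7 of 8 fibroblast markers were too, while all 8 cardiomyocyte markers were the lowest. On the authors' scale it was lowest for 4 and highest for 0 of 8 endothelial markers. For smooth muscle and pericyte markers it was lowest for 5 and highest for 2 of 8. Over all genes tested, control 2 was on this scale the lowest library for 41.7% and the highest for 27.4%. On recovered reads these shares were 22.9% and 46.9%. The marker ranks and sums given here were taken on the authors' scale only, and ranks may differ on recovered reads. Its atrial markers summed to 6249 FPKM, against 42.1 to 124 FPKM in the other 5 libraries, and its Schwann cell markers to 46.3 FPKM, against 1.38 to 2.44 FPKM. Cardiomyocyte markers summed in control 2 to 45.6% of the mean of the other 5, endothelial markers to 65.8%, smooth muscle and pericyte markers to 64.7% and fibroblast markers to 186%. The sums of epicardial, macrophage, endocardial and erythroid markers were 158%, 211%, 281% and 450.1% of that mean. Results that involve the control group are therefore given with and without this library, and the part that its cell makeup played in them was not tested. How much atrium each heart sample held was not tested either. In RNA of a mixed tissue, fewer cells of a type and less RNA per cell cannot be told apart.

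All 10 genes were expressed and all 10 passed the filter of 1 FPKM in at least 3 libraries. Their mean levels fell between the 53.8th (Lama5) and the 97.1st (Lamc1) percentile of the 12431 genes tested. Together they took 0.452% to 0.519% of the reads in STZ hearts and 0.399% to 0.483% in control hearts, the lowest share being that of control 2. The least covered gene, Lama5, had 1366 to 1741 reads per library and the most covered, Hspg2, had 17507 to 30065. Counting alone would give a coefficient of variation of up to 2.71% for Lama5 and 0.756% for Hspg2. Levels per kilobase ran in the order Lamc1, Hspg2, Nid1, Lamb1, Lamb2, Lama4, Nid2, Agrn, Lama2 and Lama5. Each gene stood above the next in 6 of 6 libraries at all but 2 steps of that order. The exceptions, Hspg2 over Nid1 and Lama4 over Nid2, held in 5 of 6 libraries and failed in control 2.

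**Figure D1:**
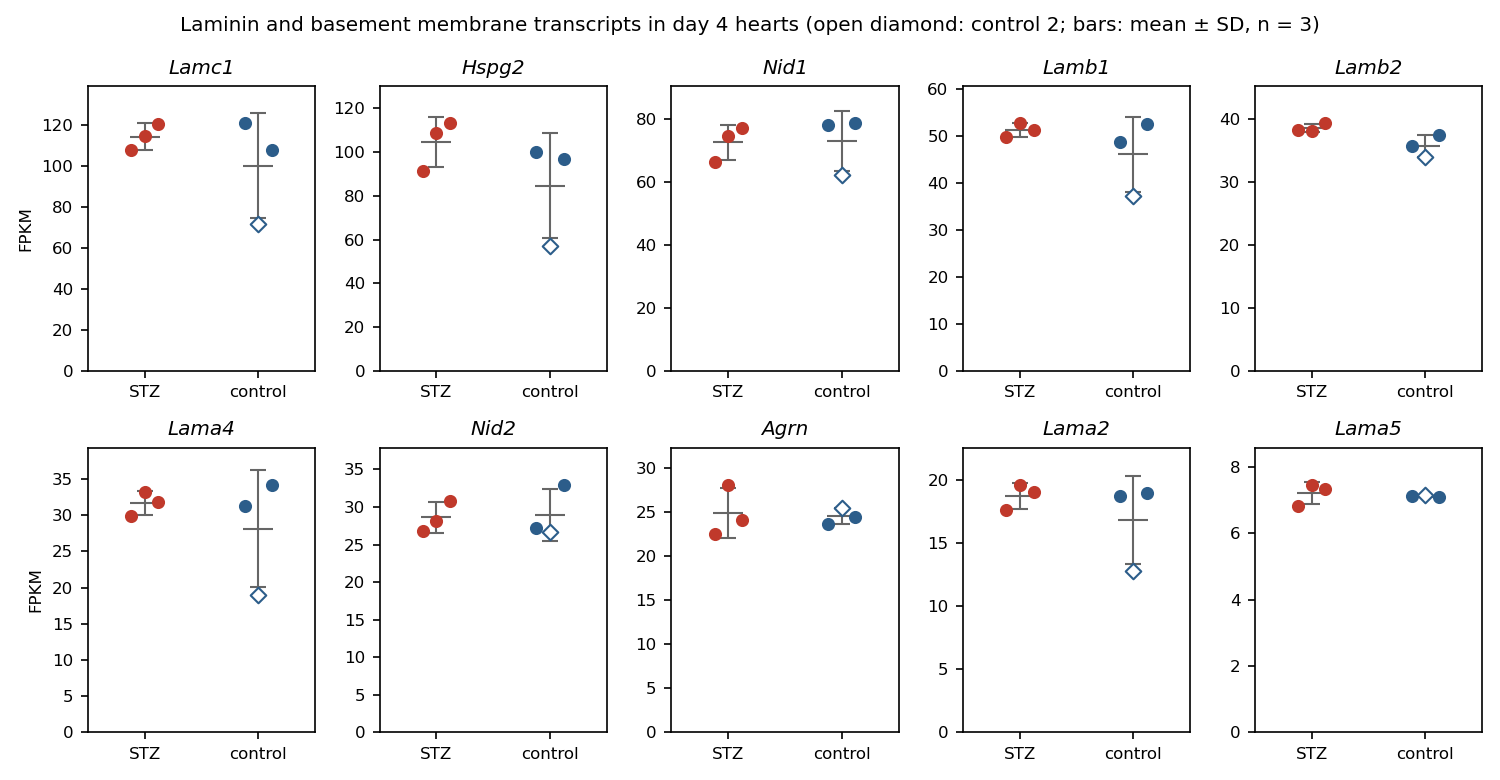
FPKM of each of the 10 genes (vertical axis, from 0) in 3 STZ and 3 control hearts, ordered by mean level, with the mean and SD of each group as bars and control 2 as an open diamond. The groups overlap for 9 of the 10 genes, and control 2 holds the lowest value for 8 of the 10.

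Did the hearts of pups from STZ-injected mothers carry more or less of these transcripts? None of the 10 genes passed the threshold for a difference between the groups (limma, Benjamini-Hochberg adjusted p between 0.922 and 0.999), where 0.0241% of all genes tested passed in either direction. None had an unadjusted limma p under 0.05 (the lowest was 0.199, for Hspg2), which 2.59% of all genes did, and 0 passed with voom on the recovered reads. The log2 fold change, STZ over control, was positive for 8 and negative for 2 of the 10 genes, beside 57.7% positive of all genes tested. The median was 0.14 against 0.03 over all genes tested. Without control 2 the split was 5 and 5 and the median 0.01, against -0.0016 over all genes. With values scaled to the recovered reads, with quantile normalization and with voom, 6 of the 10 were positive. Over all genes tested the positive shares were 44.1%, 55.3% and 44.3% in that order. Beside these, without control 2, the log2 fold change of fibroblast markers was negative at 8 of 8 genes (median -0.19) and that of endothelial markers at 7 of 8 (median -0.07). It was also negative at 5 of 6 epicardial markers (median -0.26) and at 5 of 5 tested erythroid markers (median -0.33). It was positive at 6 of 8 cardiomyocyte (median 0.02) and 4 of 5 tested atrial markers (median 0.26). The same held at 4 of 6 macrophage (median 0.08) and 3 of 5 tested endocardial markers (median 0.08). Smooth muscle and pericyte markers were positive at 3 of 7 tested (median -0.01). Of all genes tested, 49.4% were positive without control 2. The part of these cell types in the values of the 10 genes was not tested.

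Among the alpha chains, Lama4 (GRCm38 chromosome 10, 38965515 to 39110188), typical of the endothelial basement membrane, had 29.9, 33.2 and 31.9 FPKM in STZ hearts, against 31.3, 18.9 and 34.2 FPKM in control hearts. Only the value of control 2 lay outside the STZ range by a wide margin, and the groups overlapped. Its log2 fold change was 0.21 (SE 0.219, 95% interval -0.31 to 0.73) with all libraries and -0.05 (SE 0.0874, 95% interval -0.26 to 0.17) without control 2. Lama2 (chromosome 10, 26980036 to 27619758), whose loss causes a congenital muscular dystrophy, had 17.6, 19.6 and 19.0 FPKM in STZ hearts, against 18.7, 12.8 and 18.9 FPKM in control hearts. Again control 2 alone was low, and the log2 fold change of 0.17 (SE 0.165) became -0.0068 (SE 0.0815) without it. Lama5 (chromosome 2, 180176373 to 180225859), the alpha chain with the lowest level, had 6.84, 7.47 and 7.33 FPKM in STZ hearts, against 7.12, 7.15 and 7.08 FPKM in control hearts. All 3 control values of Lama5 lay inside the STZ range, and its log2 fold change was 0.02 (SE 0.0891, 95% interval -0.20 to 0.23), and 0.02 (SE 0.0804) without control 2.

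Of the beta chains, Lamb1 (chromosome 12, 31265234 to 31329644) had 49.7, 52.7 and 51.3 FPKM in STZ hearts, against 48.8, 37.2 and 52.5 FPKM in control hearts. The STZ values lay between controls 1 and 3 or just above them, and the log2 fold change was 0.16 (SE 0.152) with all libraries and 0.02 (SE 0.0801) without control 2. Lamb2 (chromosome 9, 108479736 to 108490530), a beta chain best known from the neuromuscular synapse and the kidney filter, had 38.2, 38.1 and 39.3 FPKM in STZ hearts, against 35.7, 34.0 and 37.4 FPKM in control hearts. It was the only 1 of the 10 genes whose groups did not overlap, with every STZ value above every control value, as also happened for 4.92% of all genes tested in that direction. The means were 38.5 ± 0.685 FPKM in STZ hearts and 35.7 ± 1.73 FPKM in control hearts (SD, n = 3 each), and the log2 fold change was 0.11 (SE 0.102, with an adjusted limma p of 0.922). An exact two-sided permutation test gave p = 0.1, the smallest that 3 against 3 libraries allow. The separation from control 2 depended on the scale of that library. On recovered reads Lamb2 stood at 38.7, 38.3 and 40.3 (FPKM on that scale) in STZ hearts and at 35.2, 41.0 and 37.9 in control hearts, so that the groups overlapped. Without control 2 its log2 fold change was 0.07 (SE 0.0746). All 3 STZ values then lay above both remaining control values, as they did for 9.16% of all genes tested.

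Lamc1 (chromosome 1, 153218922 to 153332786) encodes the gamma chain that most laminins of the heart share, and it had the highest level of the 10 genes in every library. Its values were 108, 115 and 121 FPKM in STZ hearts, against 121, 71.6 and 108 FPKM in control hearts. Controls 1 and 3 lay close to the ends of the STZ range and control 2 was far lower. The log2 fold change was 0.22 (SE 0.209, 95% interval -0.28 to 0.72) and -0.0011 (SE 0.0967, 95% interval -0.24 to 0.23) without control 2.

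The nidogens, which clip laminin to collagen IV, had differences nearest to 0 among the 10 genes with all libraries on the authors' scale. Nid1 (chromosome 13, 13437551 to 13512269) had 66.2, 74.5 and 77.0 FPKM in STZ hearts, against 78.2, 62.1 and 78.6 FPKM in control hearts. STZ over control gave a log2 value of -0.0024 (SE 0.144), and of -0.11 (SE 0.094, 95% interval -0.34 to 0.11) without control 2. All 3 STZ values then lay below both remaining control values on the authors' scale, as they did for 8.55% of all genes tested. On recovered reads this did not hold, with STZ heart 3 at 79.0 and control 1 at 77.1 (FPKM on that scale). Nid2 (chromosome 14, 19751265 to 19811787) had 26.9, 28.2 and 30.8 FPKM in STZ hearts, against 27.2, 26.7 and 33.0 FPKM in control hearts, and the groups overlapped over nearly their whole range. Its log2 fold change was -0.01 (SE 0.126) with all libraries and -0.07 (SE 0.111) without control 2. The 3' end of Nid2 overlaps that of Rtraf on the opposite strand, and whether the authors counted by strand is not given, so reads in that stretch cannot be assigned with certainty.

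Perlecan, the large proteoglycan of vessel and muscle basement membranes, had the widest difference of the 10 genes with all libraries. Without control 2 the widest on the authors' scale was that of Nid1. On recovered reads without control 2 it was again that of Hspg2, at a log2 fold change of 0.101. Lamb2 stood there at 0.097 and Nid1 at -0.091. Hspg2 (chromosome 4, 137468769 to 137570630) had 91.6, 109 and 113 FPKM in STZ hearts, against 100.3, 57.2 and 96.7 FPKM in control hearts. STZ hearts 2 and 3 were above every control heart and STZ heart 1 was below controls 1 and 3. The log2 fold change was 0.34 (SE 0.237, 95% interval -0.23 to 0.90, adjusted limma p of 0.922) and 0.08 (SE 0.113, 95% interval -0.20 to 0.35) without control 2. Agrin, known for gathering acetylcholine receptors at the nerve-muscle synapse and, in the mouse heart, for a part in neonatal regeneration, showed no such drop in control 2. Agrn (chromosome 4, 156165290 to 156197488) had 22.6, 28.1 and 24.1 FPKM in STZ hearts, against 23.7, 25.5 and 24.5 FPKM in control hearts, where all 3 control values lay inside the STZ range. Its log2 fold change was 0.02 (SE 0.118, 95% interval -0.26 to 0.30), and 0.04 (SE 0.109) without control 2.

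**Figure D2:**
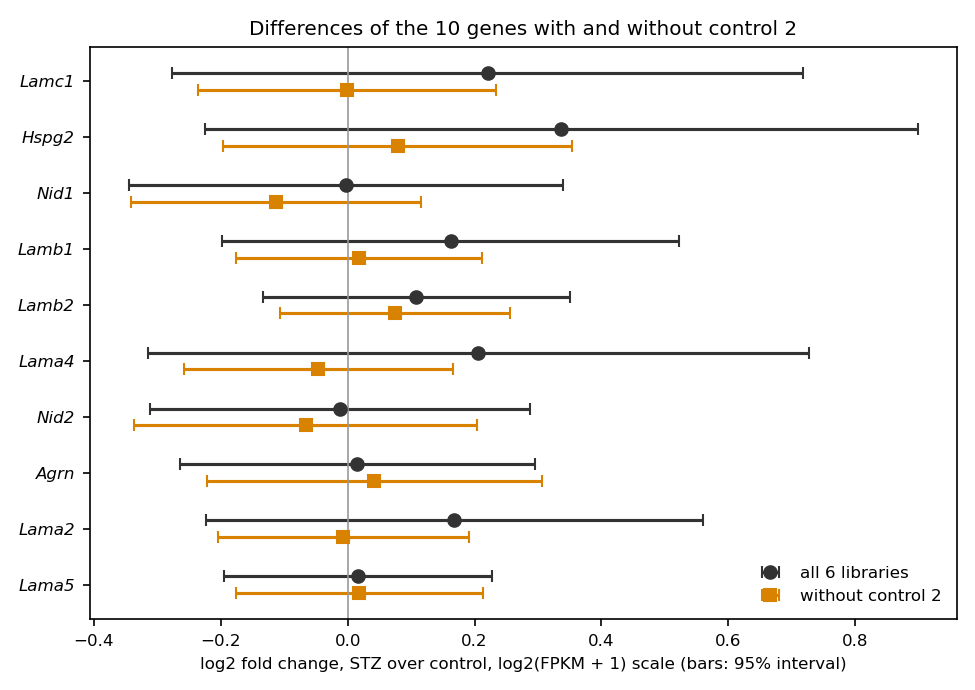
Log2 fold change, STZ over control, of the 10 genes on the log2(FPKM + 1) scale with 95% limma intervals, for all 6 libraries (circles) and without control 2 (squares). Every interval includes 0, and for Lamc1, Hspg2, Lama4 and Lama2 the point moves toward 0 when control 2 is left out.

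The spread of the 10 genes was also taken among the 5 libraries other than control 2, without a comparison to all genes tested. The coefficient of variation over those 5 hearts ran from 3.38% for Lama5 and 3.39% for Lamb1 to 8.93% for Nid2. Counting alone would give up to 2.71% for Lama5, 1.13% for Lamb1 and 2.05% for Nid2. Without control 2 the 95% intervals of the 10 genes lay within -0.34 and 0.35 on the log2 scale. Control 2 itself divided the genes. On the authors' scale it was the lowest of the 6 libraries for 8 of the 10 genes, as it was for 41.7% of all genes tested. It held 56.0% of the mean of the other 5 for Hspg2, 59.0% for Lama4, 62.7% for Lamc1, 68.0% for Lama2 and 73.0% for Lamb1. For Nid1, Lamb2 and Nid2 it held 82.9%, 90.0% and 91.3%, and for Lama5 and Agrn 99.7% and 104%. Scaled to the recovered reads, control 2 was the lowest library for 5 of the 10 genes (Hspg2, Lama4, Lamc1, Lama2 and Lamb1) and the highest for 3 (Lamb2, Lama5 and Agrn), beside 22.9% and 46.9% of all genes. Hspg2 stood there at 67.0% and Agrn at 124% of the mean of the other 5.

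**Figure D3:**
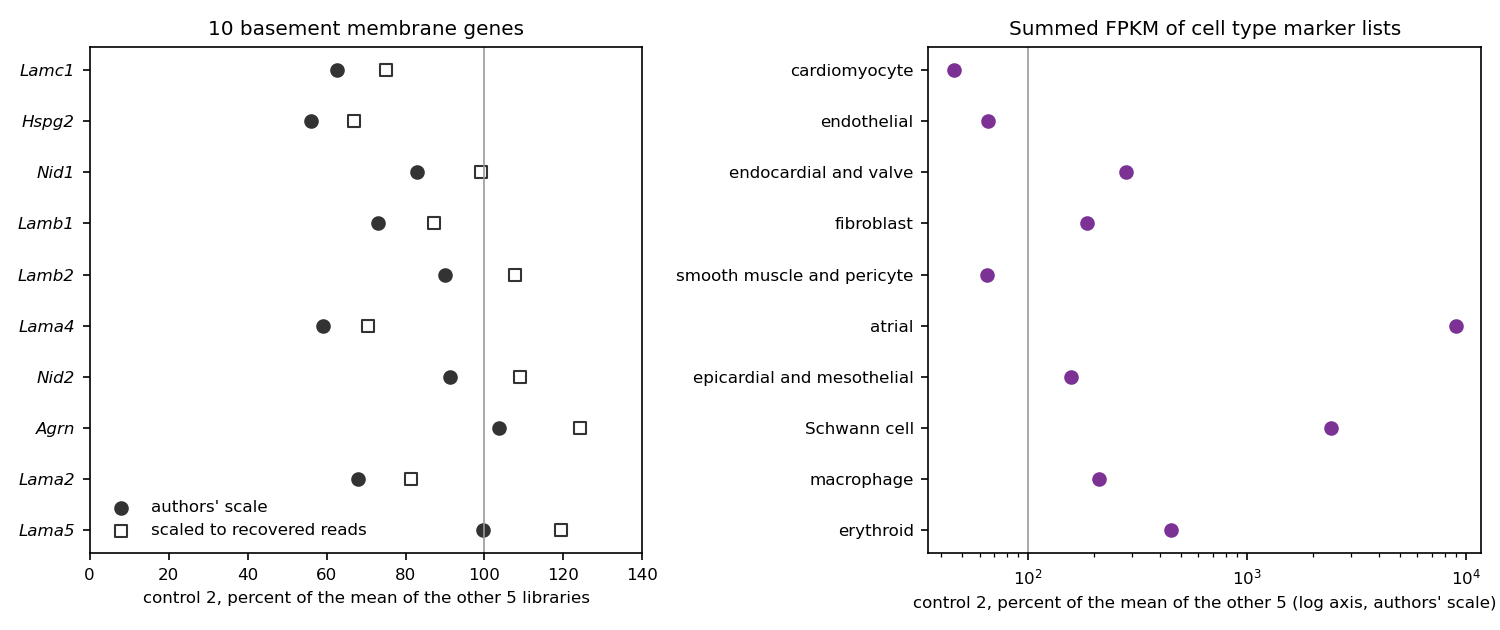
Level of control 2 as a percentage of the mean of the other 5 libraries. Left, the 10 genes on the authors' scale and on recovered reads. Right, summed markers of 10 cell types on the authors' scale, with a log axis. Hspg2, Lama4 and Lamc1 are lowest at 56.0% to 62.7% on the authors' scale, while the atrial marker sum is 9044% and the Schwann cell sum 2428%.

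Shares of chain transcripts within a library do not depend on that library's scale, so they were compared as a measure of transcript balance. They do not give the makeup of laminin protein. Lama4 made up 55.0%, 55.1% and 54.7% of the summed FPKM of Lama2, Lama4 and Lama5 in STZ hearts, against 54.8%, 48.7% and 56.8% in control hearts. The 3 STZ hearts were nearly identical and control 2 was low. Lama2 made up 32.4%, 32.5% and 32.7% of the same sum in STZ hearts, against 32.8%, 32.9% and 31.4% in control hearts. Lamb1 made up 56.6%, 58.1% and 56.6% of the summed beta chains in STZ hearts, against 57.7%, 52.3% and 58.4% in control hearts. In control 2 the beta chain transcripts were thus closest to equal levels. Nid1 made up 71.1%, 72.6% and 71.4% of nidogen transcripts in STZ hearts, against 74.2%, 70.0% and 70.5% in control hearts. Lamc1 stood at 122%, 126% and 133% of the summed beta chains in STZ hearts, against 143%, 101% and 120% in control hearts. Exact two-sided permutation tests of these 5 shares gave p between 0.7 and 1, and 1 for each after BH adjustment. The smallest p this test can give with 3 against 3 libraries is 0.1, so no share could have passed a threshold of 0.05. The differences, STZ minus control, were 1.52, 0.17, 0.94, 0.18 and 5.95 percentage points in the order given. Without control 2 they were -0.83, 0.43, -0.98, -0.61 and -4.36, so 4 of the 5 changed sign.

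**Figure D4:**
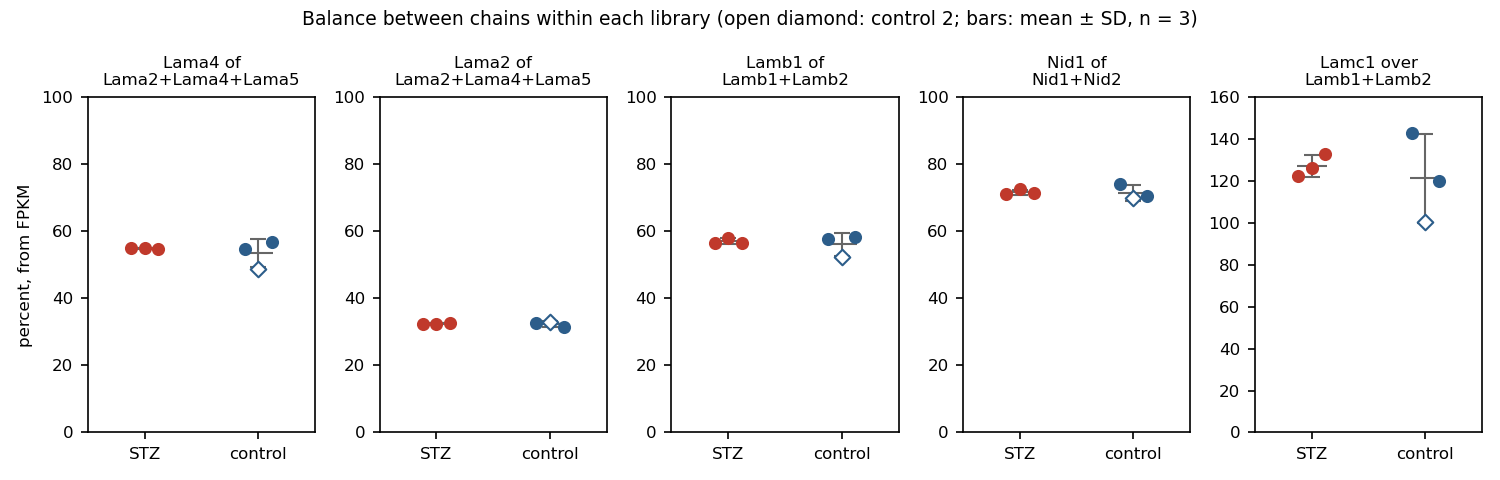
Share of a chain in the summed FPKM of its kind, and Lamc1 relative to the summed beta chains (percent, axis from 0), in 3 STZ and 3 control hearts, with mean and SD as bars and control 2 as an open diamond. STZ hearts lie within 54.7% to 55.1% for Lama4 and control 2 is the lowest point in 4 of the 5 panels.

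The other genes of the pathway were read from 5 lists, of which 44 genes were tested in all and 0 passed (limma), 0 at an unadjusted p under 0.05 and 0 with voom. The counts of positive genes below stand beside 57.7% of all genes tested, and 49.4% without control 2. Of the other laminin chains, 2 of 5 were tested. Lamb3, a chain of epithelial laminin, was at 1.13 ± 0.126 FPKM in STZ hearts and 2.07 ± 1.57 FPKM in control hearts (SD, n = 3 each). The highest Lamb3 value was that of control 2, at 3.85 FPKM. The log2 fold change of Lamb3 was -0.41 with that library and -0.02 without it. Lama1, Lama3 and Lamc3 stayed below 1 FPKM in every library.

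Basement membrane collagens and their cross-linking enzymes had 5 of 7 tested genes positive, with a median log2 fold change of 0.05 (-0.0075 without control 2). Collagen type IV, the second network of the sheet, was led by Col4a1 and Col4a2. Col4a2 had 186, 198 and 202 FPKM in STZ hearts, against 178, 153 and 176 FPKM in control hearts, so its groups did not overlap. Its log2 fold change was 0.21 (SE 0.136, with an adjusted limma p of 0.922), and 0.14 without control 2. Col4a1, its partner in the main collagen IV trimer, had 270.2, 292 and 287 FPKM in STZ hearts, against 249.98, 209 and 271 FPKM in control hearts, with a log2 fold change of 0.23 (SE 0.158), and of 0.12 without control 2.

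The receptor list had 8 of 10 tested genes positive, with a median of 0.17, and 6 of 10 and a median of 0.01 without control 2. This list also holds integrins best known for other ligands, Itga9 among them. Dag1 encodes dystroglycan, which binds laminin, perlecan and agrin alike. It stood at 99.96, 99.8 and 99.7 FPKM in STZ hearts, against 101, 67.4 and 89.4 FPKM in control hearts, with a log2 fold change of 0.23 (SE 0.171), and of 0.07 without control 2. The integrin gene Itga9 was at 19.6 ± 3.50 FPKM in STZ hearts and 16.1 ± 3.18 FPKM in control hearts (SD, n = 3 each), and its log2 fold change was 0.27 with and 0.11 without control 2. Enzymes that build the laminin-binding sugar of dystroglycan had 5 of 12 tested genes positive and a median of -0.04, and 4 of 12 and a median of -0.0098 without control 2. The lowest p among them was that of B3galnt2, at 2.58 ± 0.288 FPKM in STZ hearts and 3.11 ± 0.402 FPKM in control hearts (SD, n = 3 each), with a log2 fold change of -0.20, or -0.14 without control 2.

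Proteins associated with the sheet had 7 of 13 tested genes positive and a median of 0.04, and 7 of 13 and 0.03 without control 2. Npnt, encoding the integrin ligand nephronectin, had the lowest p, at 1.16, 1.28 and 1.25 FPKM in STZ hearts, against 1.37, 4.37 and 2.20 FPKM in control hearts. All 3 STZ values were below all 3 control values. The difference was -0.63 on the log2 scale (SE 0.283, limma with BH adjustment, adjusted p = 0.922), or -0.30 without control 2. Frem2, a component of embryonic epithelial basement membranes, was at 4.06, 4.16 and 4.05 FPKM in STZ hearts, against 3.01, 3.46 and 3.83 FPKM in control hearts. Its groups did not overlap on the authors' scale either, and its log2 fold change was 0.20 (SE 0.106) with and 0.21 without control 2. With values scaled to the recovered reads, control 2 lay above STZ hearts 1 and 3 for Frem2, so the groups overlapped. Over the 5 lists, 4 of the 44 tested genes had groups that did not overlap on the authors' scale, beside 8.54% of all genes tested. Besides Col4a2, Npnt and Frem2 this was Fbln2, a fibulin gene named here after its values were seen, at 28.8, 32.3 and 30.4 FPKM in STZ hearts, against 34.3, 69.3 and 34.1 FPKM in control hearts. Its log2 fold change was -0.49 with and -0.16 without control 2.

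**Figure D5:**
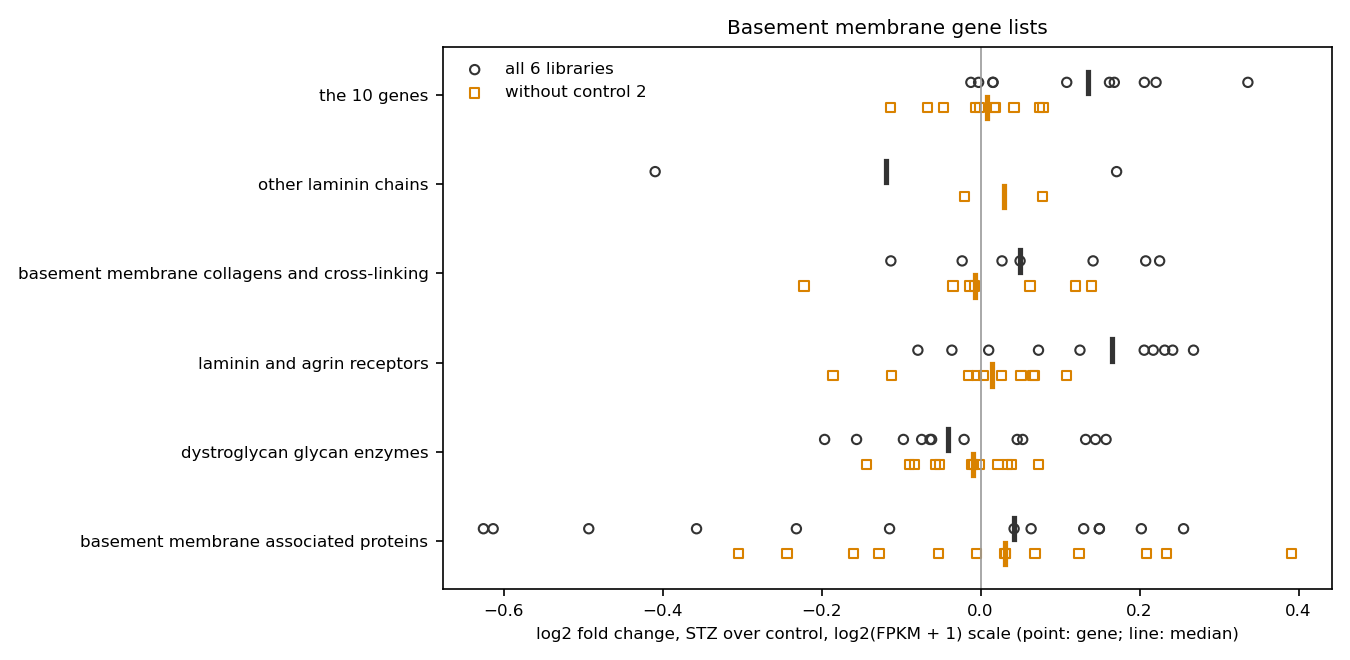
Log2 fold change, STZ over control, of each tested gene (points) and the median (lines) for the 10 genes and 5 further basement membrane lists, with all 6 libraries (circles) and without control 2 (squares). The medians with all libraries run from -0.12 to 0.17 and those without control 2 from -0.0098 to 0.03.

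The genes whose profile over the 6 libraries was nearest to that of Lamc1 were looked for among 7191 other tested genes with a mean of at least 5 FPKM. The measure was the mean absolute difference of log2(FPKM + 1) values, each centred on the gene's own mean. The nearest was Slc2a4, the insulin-responsive glucose transporter of muscle, at 0.0114 log2 units. It had 41.3, 45.0 and 46.7 FPKM in STZ hearts, against 47.7, 27.6 and 42.3 FPKM in control hearts. Snrk, a kinase gene, followed at 0.0286 and Ripor1 at 0.0295 log2 units. The nearest of the other 9 genes described here was Lama2, at 0.0728 log2 units, and the farthest was Agrn, at 0.222. Among all genes of that mean level they ranked 225 and 4427 in closeness to Lamc1. Slc2a4, Snrk and Ripor1 shared the low value of control 2 with Lamc1. They were picked for closeness to its profile, so this likeness follows from the choice. Control 2 was the lowest library for 41.7% of all genes tested on the authors' scale.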

How the data were processed

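RNA-seq libraries of 6 mouse hearts were compared, 3 STZ and 3 control. The authors deposited 1 table of FPKM-type values on GRCm38 (mm10), per the submitters' processing notes. For the aligner, the counting tool and the annotation, the answer is: not given in the sources used here. That the unit is FPKM was read from the table's abbreviation and its values. Multiplied by gene length and divided by the smallest unit of a library, 100% of the values above 0 were whole numbers of reads, within 0.01 reads.

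Values were analysed as log2(FPKM + 1), a scale that understates changes of low genes. The 12431 genes that reached 1 FPKM in at least 3 libraries were fitted by group alone with limma 3.58.1 (R 4.3.3), with a trended prior variance. Two-sided p-values were adjusted by the Benjamini-Hochberg (BH) method across the whole set of tested genes, at a threshold of 0.05. Shares used exact permutation over 20 assignments. The fit was tested on simulated data with the same dispersion in every library, so not with a library that stood apart as control 2 did. Named by rule were the 10 genes, the 2 with the lowest p in each list and the 3 nearest to Lamc1, of which 2 list genes are not reported here. The genes and lists were chosen with earlier results of these data known. Every pair of libraries differed by more than sampling noise (chi-square per degree of freedom at least 11.8). Alternatives covered pseudocount, filter, scaling, replicate block, array weights, voom and each library left out. Figures used matplotlib 3.10.9.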

Additional observations from a re-analysis of the deposited data

How the results depend on the processing

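None of the 10 genes passed the limma threshold under any of the 17 alternatives per gene, where the lowest adjusted p was 0.690. Of 170 gene values under an alternative, 152 kept their sign. Without control 2 the number of positive genes moved from 8 to 5. Over fits without 1 library it ran from 5 to 10, and the log2 fold change ran from -0.0011 to 0.37 for Lamc1, from -0.0068 to 0.26 for Lama2, from -0.047 to 0.36 for Lama4, from -0.0067 to 0.049 for Lama5, from -0.11 to 0.061 for Nid1, from -0.067 to 0.082 for Nid2 and from -0.071 to 0.081 for Agrn, and kept its sign for Lamb1, Lamb2 and Hspg2. The lowest of these was without control 2 for Lamc1, Lama2, Lama4 and both nidogens, and without STZ 2 for Lama5 and Agrn. On recovered reads, with quantile normalization and with voom, Lama5 was at -0.045, -0.0056 and -0.050, and Agrn at -0.0502, -0.011 and -0.051. Lama4 was at -0.024 on recovered reads without control 2, an alternative added after the data were seen.

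Leaving out 1 library moved the share differences over -0.83 to 3.21 points (Lama4), -0.30 to 0.43 (Lama2), -0.98 to 2.07 (Lamb1), -0.61 to 1.499 (Nid1) and -4.36 to 16.9 (Lamc1 over beta chains). The median of the dystroglycan enzymes was 0.13 with a mean of at least 5 FPKM, which left fewer genes, and -0.13 with voom. That of the associated proteins was -0.11 with a mean of at least 5 FPKM.

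Of all genes tested, 2 passed as higher and 1 as lower. The higher count was 1 with a pseudocount of 0.1, with no filter, with a mean of at least 5 FPKM and with voom, and 0 with the replicate block. The lower count was 2 with quantile normalization, 0 with the replicate block, 6 with array weights, 0 with voom and 2 without control 2 on recovered reads. Without 1 library these counts ran from 1 to 2 and from 1 to 3. The cause of these changes was not tested.

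Same-numbered STZ and control hearts deviated together with r of 0.021, -0.041 and 0.092 across genes, so the numbers were not read as pairs. The replicate block changed no call on the 10 genes.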
